A study of Felis catus with 8 samples.

Results

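Immediate early genes were described in cat liver through 10 genes: the AP-1 subunits FOS, FOSB, JUN, JUNB and JUND, the related factor ATF3, the zinc finger factor EGR1, and ZFP36, DUSP1 and IER2, which are switched on in the same early wave. Their probe sets were those that the array's annotation assigned to 1 gene only, with that gene among the 10. This gave 56 probe sets of 257101 on the array. Of these, 34 were brighter on average than the median of all probe sets (log2 2.43) and were averaged into 10 gene values among 17910 genes tested. All 5 probe sets of JUN passed that brightness filter, as did all of JUNB (3), JUND (3) and DUSP1 (4). FOS kept 5 of 7, EGR1 3 of 5, IER2 3 of 6, ATF3 5 of 13, FOSB 2 of 7 and ZFP36 1 of 3.

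The livers came from male domestic cats (Felis catus) aged 9 months, fed 1 of 4 diets, with 2 arrays per diet. The control diet was standard chow. The MSG diet added 1.125% monosodium glutamate (MSG), a flavour enhancer, to that chow. Trans fat at 8.6% and 24% high-fructose corn syrup (HFCS) made up the trans-fat/HFCS diet. The combined diet held the same amounts of all 3. Every cat was the offspring of a dam that had eaten the same diet from 3 weeks before mating to the end of nursing, so the diets also differed before birth and before weaning. The labels speak of 4 to 5 livers per diet for RNA extraction and number the 8 arrays as different cats, without naming litters or saying whether RNA was pooled. The p-values therefore measure the spread between arrays and no more. Cat RNA was read with human probes, and a probe set reads poorly where the cat sequence differs from the human one. The tissue was whole liver, where fewer cells of a type and less RNA per cell cannot be told apart.

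Immediate early genes are transcribed within minutes of a signal, without the need for new protein, when MAP kinases act on factors already bound to their promoters. FOS and JUN proteins pair to form AP-1, which binds DNA through basic leucine zippers, EGR1 binds GC-rich promoter sites, ZFP36 speeds the decay of mRNAs with AU-rich ends, and DUSP1 removes phosphate from the MAP kinases themselves. In liver this wave is known after partial hepatectomy, with growth factors and with stress. The same genes also respond to the handling of tissue before it is frozen.

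The median intensity of an array was between 5.25 and 5.28, and the 2 arrays of a diet correlated across genes at r between 0.946 and 0.968. Mean log2 intensity of 11 measured hepatocyte markers lay between 8.09 and 8.27 on all arrays, and none of the 11 passed the test in any of the 7 contrasts, with at most 2 at an unadjusted p under 0.05 in limma. Both trans-fat/HFCS arrays stood apart in the summed intensity of 12 skeletal muscle genes, which was 730 and 758 there and between 190 and 214 on the other 6 arrays. Of the 12, 11 passed as higher on trans-fat/HFCS than on control. The exception was TNNI2, at 4.29 and 3.88 against 4.15 and 4.18. None of the 12 was at 0 on any array, and ACTA1, the skeletal actin, stood at 7.57 and 7.60 on the trans-fat/HFCS arrays and between 4.47 and 4.88 elsewhere. The summed intensity of 8 stellate cell markers was 157 and 165 on the combined arrays and between 219 and 242 on the other 6. Where the design allows it, results are given below also without the trans-fat/HFCS arrays.

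Among the 10 genes DUSP1 had the widest range over the arrays, 2.77 on the log2 scale, and was highest on MSG and lowest on the combined diet. FOS and EGR1 were lower on MSG than on control, EGR1 by about 2 on the log2 scale, and ZFP36 and FOSB were lower on the trans-fat/HFCS diet than on control. JUN, JUNB, JUND, IER2 and ATF3 passed the test in no contrast. Differences were tested with limma in a model of all 4 diets, adjusted by Benjamini-Hochberg over 17910 genes with a threshold of 0.05.

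**Figure D1:**
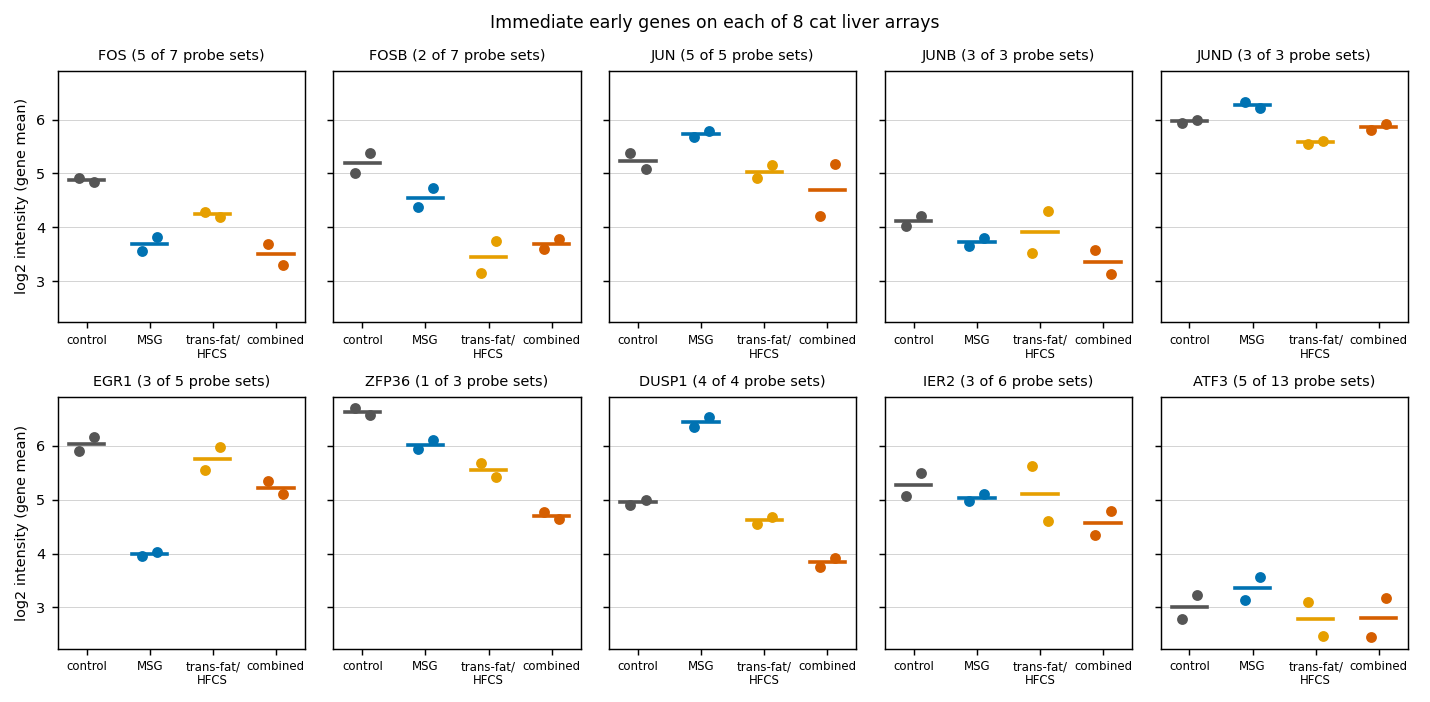
Log2 intensity of the 10 genes (vertical axis, mean of the kept probe sets) on each of the 8 arrays (points), with a line at the mean of the 2 arrays of each diet. DUSP1 stands at 6.35 and 6.53 on the MSG arrays and at 3.76 and 3.92 on the combined arrays, while IER2 and ATF3 spread as widely within diets as between them.

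DUSP1, the MAP kinase phosphatase that ends MAP kinase signals, had a log2 intensity of 4.90 and 5.00 on the control arrays, 6.35 and 6.53 on the MSG arrays, 4.56 and 4.68 on the trans-fat/HFCS arrays, and 3.76 and 3.92 on the combined arrays. The 4 diets did not overlap, with MSG highest, then control, then trans-fat/HFCS and then combined. The neighbours control and trans-fat/HFCS differed by 0.33 (SE 0.17), which did not pass (adjusted p = 0.34 in limma). MSG on chow raised DUSP1 2.81-fold (log2 1.49, SE 0.17, 95% interval 1.11 to 1.87, adjusted p = 0.0075 in limma). On the trans-fat/HFCS base the MSG difference was -0.78 (SE 0.17), outside the threshold (adjusted p = 0.18 in limma). The test of the difference between these MSG effects, the interaction, was -2.27 (SE 0.24, adjusted p = 0.013 in limma). Among MSG-fed cats DUSP1 fell 6.07-fold with trans fat and HFCS (log2 -2.60, SE 0.17, adjusted p = 0.00034 in limma), the fourth smallest p of all genes in that contrast.

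All 4 probe sets of DUSP1 moved the same way. Between control and MSG they rose by 1.15 to 2.03 on the log2 scale, and between MSG and the combined diet they differed by -3.60 to -1.43. Probe set 8115834 had the widest swing, from 5.55 and 6.03 on MSG to 2.00 and 2.37 on the combined diet, where it was below the brightness threshold on both arrays. Its neighbour 8115832 went from 6.62 and 6.76 to 5.43 and 5.08. The rise on chow did not pass without any 1 control or MSG array, at differences of 1.40 to 1.58 with an adjusted p between 0.073 and 0.11 in limma, nor with the brightest probe set (1.35, adjusted p = 0.12) or the median of probe sets (1.35, adjusted p = 0.23). The interaction was lost in the same 6 settings (-2.36 to -2.14, adjusted p between 0.083 and 0.19 in limma), while the fall among MSG-fed cats passed in all 17 alternatives.

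EGR1, which early signals induce through the serum response factor, stood at 5.91 and 6.16 on the control arrays, 3.96 and 4.03 on the MSG arrays, 5.55 and 5.98 on the trans-fat/HFCS arrays, and 5.35 and 5.10 on the combined arrays. Both MSG arrays were below every other array by more than 1, and control and trans-fat/HFCS overlapped. EGR1 fell 4.11-fold with MSG on chow (log2 -2.04, SE 0.20, adjusted p = 0.0042 in limma). On the trans-fat/HFCS base the MSG difference was -0.54 (SE 0.20, adjusted p = 0.49 in limma). The interaction of 1.50 (SE 0.29) was outside the threshold (adjusted p = 0.14 in limma), so the MSG effects on the 2 bases were not shown to differ. Averaged over both bases EGR1 was 2.44-fold lower with MSG (log2 -1.29, SE 0.14, adjusted p = 0.0086 in limma), a call that ended in 6 of 18 alternatives. With MSG in both diets, EGR1 was 2.35-fold higher on the combined diet than on the MSG diet (log2 1.23, SE 0.20, adjusted p = 0.022 in limma).

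The 3 kept probe sets of EGR1 differed in the size of this change. Probe set 8108375 read 5.07 and 5.39 on control and 2.12 and 2.32 on MSG, a difference of -3.01 that ended below the brightness threshold. Probe set 8108372 read 6.70 and 6.84 on control and 4.16 and 4.36 on MSG, a difference of -2.51. The brightest, 8108371, moved by only -0.59, from 5.95 and 6.27 to 5.62 and 5.41, though its MSG arrays again lay below its control arrays. With that probe set alone EGR1 did not pass on chow (-0.59, adjusted p = 0.47 in limma) or between MSG and combined (0.38, adjusted p = 0.30). The fall on chow also ended without control array 2, MSG array 1 or MSG array 2 (-2.07 to -1.91, adjusted p between 0.061 and 0.073 in limma), and the difference between MSG and combined without any 1 array of those diets (1.10 to 1.36, adjusted p between 0.055 and 0.16). The average over both bases ended with the brightest probe set (-0.39, adjusted p = 0.49 in limma), with the median of probe sets (-1.08, adjusted p = 0.079), in a model without interaction (adjusted p = 0.23), and without control array 2, MSG array 1 or MSG array 2 (-1.30 to -1.22, adjusted p between 0.051 and 0.068).

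FOS, the inducible partner in AP-1, had a log2 intensity of 4.92 and 4.84 on the control arrays, 3.55 and 3.82 on the MSG arrays, 4.28 and 4.20 on the trans-fat/HFCS arrays, and 3.69 and 3.31 on the combined arrays. Control was highest, trans-fat/HFCS lay between, and the MSG and combined arrays overlapped at the bottom. MSG on chow lowered FOS 2.28-fold (log2 -1.19, SE 0.19, adjusted p = 0.047 in limma). On the trans-fat/HFCS base the difference was -0.74 (SE 0.19), without overlap between the diets but with an adjusted p = 0.30 in limma. Averaged over both bases FOS was 1.96-fold lower with MSG (log2 -0.97, SE 0.13, adjusted p = 0.022 in limma).

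All 5 kept FOS probe sets were lower on MSG than on control, by 0.35 to 1.94 on the log2 scale, 3 of them by more than 1. Probe set 7975785 read 6.90 and 6.99 on control, 4.86 and 5.16 on MSG, 6.04 and 5.66 on trans-fat/HFCS, and 4.45 and 3.76 on the combined diet. It was lower with MSG on either base, by 1.94 and 1.74. The dim probe set 7975780, at the 0.35 end, overlapped between all diets. Its mean over the arrays, 2.45, was just above the brightness threshold. Control array 2, its highest at 3.22, helped it pass. The FOS call on chow was close to the threshold and ended in 12 of 17 alternatives (adjusted p from 0.0059 to 0.57 over all 17 in limma), among them any 1 control, MSG or trans-fat/HFCS array left out (-1.33 to -1.06, adjusted p between 0.09 and 0.36). Averaged over both bases it ended in 9 of 18, with values of -1.84 to -0.53.

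FOSB, a second FOS family subunit, stood at 5.01 and 5.39 on the control arrays, 4.37 and 4.73 on the MSG arrays, 3.15 and 3.75 on the trans-fat/HFCS arrays, and 3.59 and 3.78 on the combined arrays. Control was highest, MSG lay below it, and both diets with trans fat and HFCS overlapped at the bottom. FOSB fell 3.36-fold with trans fat and HFCS in the absence of MSG (log2 -1.75, SE 0.24, adjusted p = 0.01 in limma). In the presence of MSG the difference was -0.86 (SE 0.24, adjusted p = 0.12 in limma), and the interaction of 0.89 (SE 0.34) did not pass either (adjusted p = 0.50). Averaged over both, FOSB was 2.47-fold lower (log2 -1.31, SE 0.17, adjusted p = 0.004 in limma).

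FOSB rested on 2 bright probe sets that disagreed on the combined arrays. Probe set 8029698 read 4.79 and 3.08 there and 8029700 read 2.40 and 4.47, so the small spread of the averaged value on that diet hides a wide spread in each probe set. With the brighter of them the averaged fall was -0.89 (adjusted p = 0.18 in limma, outside the threshold). The fall without MSG ended with that probe set (-1.04, adjusted p = 0.33 in limma), with the 5 dim probe sets averaged in (-0.42, adjusted p = 0.079), and without either control array or trans-fat/HFCS array 1 (-1.94 to -1.45, adjusted p between 0.053 and 0.095).

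ZFP36, the mRNA decay factor also called tristetraprolin, read 6.70 and 6.57 on the control arrays, 5.94 and 6.10 on the MSG arrays, 5.69 and 5.43 on the trans-fat/HFCS arrays, and 4.77 and 4.65 on the combined arrays. The 4 diets did not overlap and descended from control through MSG and trans-fat/HFCS to combined. With trans fat and HFCS it fell 2.10-fold without MSG (log2 -1.07, SE 0.17, adjusted p = 0.016 in limma) and 2.48-fold with MSG (log2 -1.31, SE 0.17, adjusted p = 0.0086). The MSG differences were -0.61 (SE 0.17, adjusted p = 0.36 in limma) on chow and -0.85 (SE 0.17, adjusted p = 0.16) on the trans-fat/HFCS base. Averaged over both bases the MSG difference of -0.73 (SE 0.12) lay just outside the threshold (adjusted p = 0.054 in limma). The interaction was -0.24 (SE 0.24, adjusted p = 0.81 in limma).

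The ZFP36 values are those of 1 probe set, 8028655, since the other 2 were dim on every array (1.58 to 2.14). Averaging them in gave -0.44 without MSG (adjusted p = 0.071 in limma) and -0.45 with MSG (adjusted p = 0.076). The first contrast also ended without any 1 control or trans-fat/HFCS array (-1.20 to -0.94, adjusted p between 0.055 and 0.14 in limma), and the second without either MSG array (-1.39 and -1.23, adjusted p of 0.063 and 0.075). Averaged over both, ZFP36 was 2.29-fold lower with trans fat and HFCS (log2 -1.19, SE 0.12, adjusted p = 0.0014 in limma), which passed in all 18 alternatives, between -1.31 and -0.45. Of the 18, 1 was combined against MSG alone, without the trans-fat/HFCS diet, and that gave the -1.31. With 1 kept probe set, the brightest probe set and the median of probe sets gave the same log2 values as the main fit. These alternatives could therefore not test the choice of probe set for ZFP36.

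**Figure D2:**
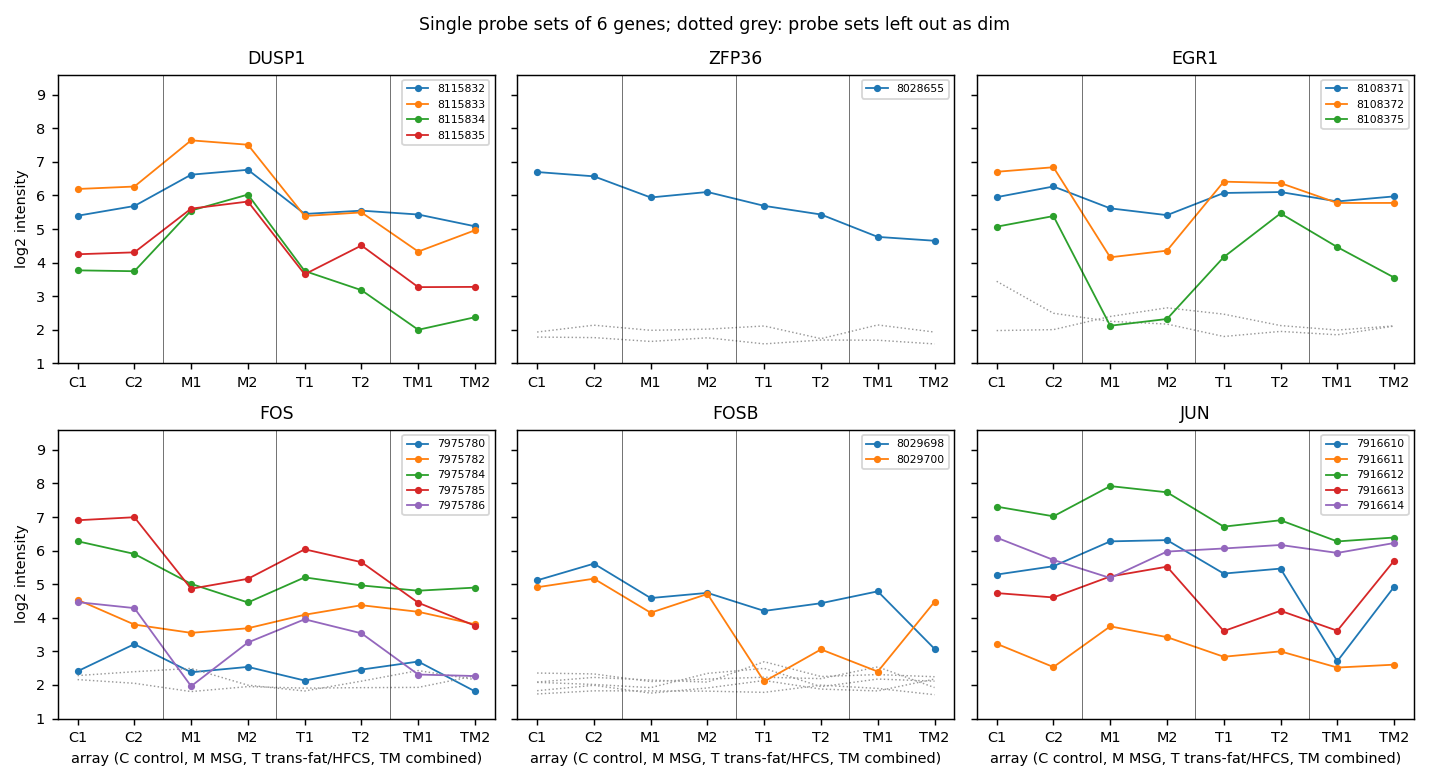
Log2 intensity (vertical axis) of single probe sets of DUSP1, ZFP36, EGR1, FOS, FOSB and JUN on the 8 arrays (horizontal axis), with kept probe sets as coloured lines and dim ones as dotted grey lines. The 4 DUSP1 lines move together, the EGR1 lines drop on the MSG arrays by -3.01, -2.51 and -0.59, and the FOSB lines cross on the combined arrays.

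The JUN family, whose proteins pair with FOS proteins or with each other, passed in no contrast with the mean of its kept probe sets. JUN, the founding AP-1 subunit, read 5.39 and 5.08 on the control arrays, 5.67 and 5.79 on the MSG arrays, 4.91 and 5.15 on the trans-fat/HFCS arrays, and 4.21 and 5.17 on the combined arrays. The MSG arrays were the highest of the 8, and 1 combined array was low. JUN differed by -1.04 (SE 0.29) between MSG and combined, which did not pass (adjusted p = 0.12 in limma). The low value came mainly from probe set 7916610, at 2.71 on combined array 1 against 4.92 on array 2, and 7916613, at 3.61 against 5.70. The brightest, 7916612, was even within diets, at 7.92 and 7.74 on MSG and 6.27 and 6.39 on combined. With it alone JUN passed (-1.50, adjusted p = 0.013 in limma), as it did without combined array 2 (-1.52, adjusted p = 0.032). Averaged over both levels of MSG, JUN differed by -0.63 with trans fat and HFCS (SE 0.20, adjusted p = 0.099 in limma), and passed with that probe set (-0.93, adjusted p = 0.0091), without combined array 2 (-0.87, adjusted p = 0.017) and with 16 added to each intensity (-0.39, adjusted p = 0.048).

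JUNB, which can restrain JUN in AP-1 dimers, read 4.02 and 4.20 on the control arrays, 3.65 and 3.81 on MSG, 3.53 and 4.30 on trans-fat/HFCS, and 3.59 and 3.14 on combined. The spread within the trans-fat/HFCS diet was as wide as most differences between diets, which lay between -0.55 and -0.20 in the 4 contrasts of 2 diets, with an adjusted p between 0.53 and 0.83 in limma. Its 3 probe sets disagreed: 8026049 read 5.72 and 6.04 on control, 4.50 and 4.31 on MSG, 4.43 and 4.21 on trans-fat/HFCS, and 3.95 and 3.78 on combined, while the other 2 overlapped between control and MSG. With 8026049 alone, the brightest, JUNB was lower on MSG than on control (-1.48, adjusted p = 0.047 in limma) and lower on trans-fat/HFCS than on control (-1.56, adjusted p = 0.01). The trans-fat/HFCS main effect on JUNB was -0.28 (SE 0.19, adjusted p = 0.40 in limma), and passed with that probe set (-1.05, adjusted p = 0.0068) and with a brightness filter at the 75th percentile (-0.90, adjusted p = 0.02).

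JUND, the member expressed without a stimulus, had the narrowest range, at 5.94 and 5.99 on control, 6.32 and 6.21 on MSG, 5.54 and 5.61 on trans-fat/HFCS, and 5.81 and 5.91 on combined. Its diets did not overlap, in the order MSG, control, combined and trans-fat/HFCS, but neighbours lay close. Averaged over both levels of MSG it differed by -0.40 (SE 0.11) with trans fat and HFCS, outside the threshold (adjusted p = 0.063 in limma). It passed without the brightness filter (adjusted p = 0.012), with 16 added to each intensity (-0.33, adjusted p = 0.0081) and with a trend in the spread (adjusted p = 0.028), all in limma.

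ATF3, a stress-induced bZIP factor, was dim, at 2.79 and 3.22 on control, 3.15 and 3.56 on MSG, 3.10 and 2.47 on trans-fat/HFCS, and 2.45 and 3.17 on combined. The SD within a diet reached 0.51 (n = 2) on the combined arrays, and the diets overlapped. Its differences between 2 diets lay between -0.54 and 0.35, with an adjusted p of at least 0.40 in limma. Only 7909615 of its 5 kept probe sets moved by more than 1 on MSG, from 2.37 and 2.14 on control to 3.12 and 3.62. It read 1.93 to 2.43 on every array of the other diets. It therefore passed the brightness filter only through its MSG arrays, and its rise there is not independent of that filter.

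IER2, a nuclear protein of the early wave, read 5.06 and 5.50 on control, 4.98 and 5.10 on MSG, 5.62 and 4.60 on trans-fat/HFCS, and 4.35 and 4.79 on combined. The trans-fat/HFCS arrays held both the highest value of the 8 and the second lowest. No difference between 2 diets passed (-0.54 to -0.17, adjusted p of at least 0.50 in limma). Probe set 8026169 differed most within trans-fat/HFCS, at 4.74 and 2.62, and the brightest, 8026166, read 6.81 and 5.95 there, while 8026168 read between 4.62 and 5.32 on all arrays.

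**Figure D3:**
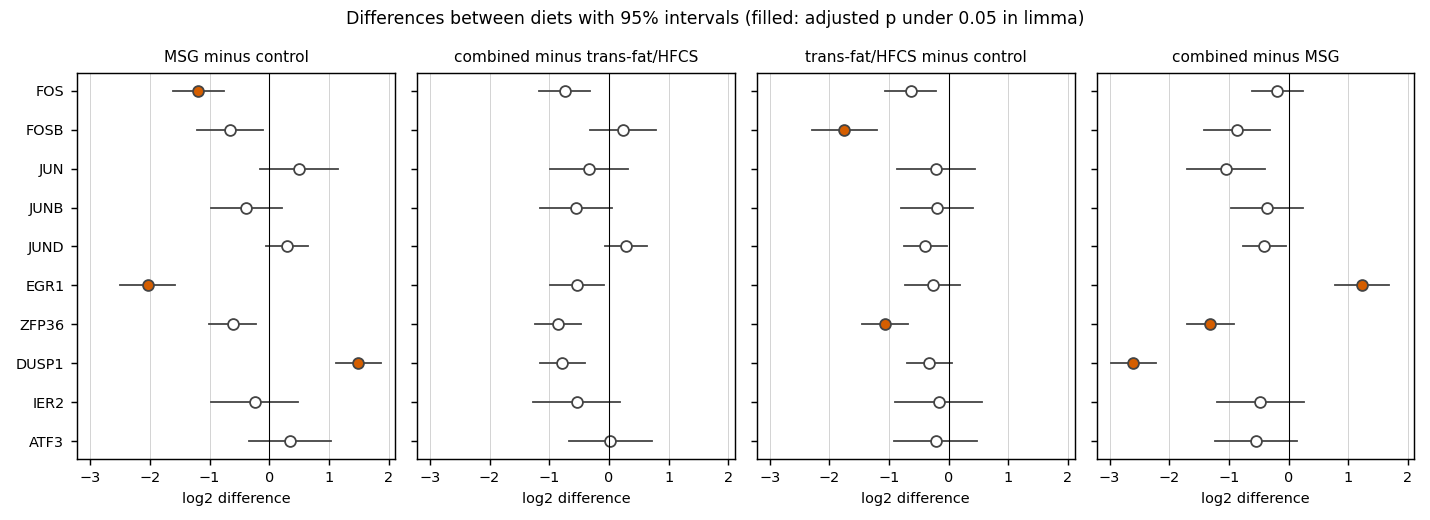
Differences between diets in log2 intensity (horizontal axis) for the 10 genes, 1 panel per pair of diets, with 95% intervals and filled points where the adjusted p in limma was under 0.05. DUSP1 lies at 1.49 for MSG minus control and at -2.60 for combined minus MSG, and no point is filled for combined minus trans-fat/HFCS.

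Counted over the contrasts, 3 of the 10 genes passed for MSG on chow, DUSP1 higher and FOS and EGR1 lower, where 0.296% of all tested genes passed. For MSG on the trans-fat/HFCS base none of the 10 passed in limma, 4 had an unadjusted p under 0.05, and 0.179% of all genes passed. For trans fat and HFCS without MSG 2 of the 10 passed, FOSB and ZFP36, both lower, against 2.48% of all genes in either direction and 1.02% lower. With MSG 3 passed, EGR1 higher and ZFP36 and DUSP1 lower, against 1.66%. For the MSG main effect, the average over both bases, 2 of the 10 passed, FOS and EGR1, both lower, against 0.329% of all genes in either direction and 0.285% in that direction. Of the 10, 3 passed for the trans-fat/HFCS main effect, FOSB, ZFP36 and DUSP1, all lower, against 7.66% of all genes and 3.22% lower. For the interaction 1 passed, DUSP1, against 0.151%. With 10 genes in all, each of these counts is small.

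The median difference of the 10 genes was -0.31 for MSG on chow, -0.54 for MSG on the trans-fat/HFCS base, -0.30 for trans fat and HFCS without MSG and -0.51 with MSG. The medians of all tested genes in these contrasts lay between 0.00 and 0.01. All 10 genes had a negative difference between trans-fat/HFCS and control, and 9 of 10, all but EGR1, between combined and MSG. These contrasts share no array. The contrasts of MSG and of trans-fat/HFCS with control do share both control arrays, on which FOS, FOSB and ZFP36 were highest. Of the 34 kept probe sets, 28 had a negative and 6 a positive difference for MSG on the trans-fat/HFCS base, and 26 and 8 for the trans-fat/HFCS main effect. The split was nearer to even for MSG on chow (19 negative, 15 positive), the MSG main effect (20 and 14) and the interaction (18 and 16), and 6 of the 10 genes were negative for MSG on chow. Probe sets of a gene are repeated readings of the same arrays, so these splits add no replication to the 10 genes. The split over all kept probe sets of the array is not given here. The mean log2 intensity over the 10 genes was 5.06 and 5.20 on control, 4.80 and 4.97 on MSG, 4.59 and 4.62 on trans-fat/HFCS and 4.16 and 4.29 on combined, so the 4 diets did not overlap and the combined diet was lowest. Groups of 2 against 2 often do not overlap: between MSG and combined this held for 8 of the 10 genes and for 46.9% of all genes.

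The muscle signal of the trans-fat/HFCS arrays touches the contrasts that use them. On the control, MSG and combined arrays the muscle genes summed to between 190 and 214. Without the trans-fat/HFCS diet, the contrast of combined with MSG gave -2.60 for DUSP1 (adjusted p = 0.0012 in limma), -1.31 for ZFP36 (adjusted p = 0.015), 1.23 for EGR1 (adjusted p = 0.023) and -0.86 for FOSB (adjusted p = 0.097). That of MSG with control gave -2.04 for EGR1 (adjusted p = 0.0059 in limma), 1.49 for DUSP1 (adjusted p = 0.018) and -1.19 for FOS (adjusted p = 0.09). Neither of these contrasts uses the trans-fat/HFCS arrays. Leaving those arrays out could therefore change only the estimate of spread, not the log2 differences. With that estimate the FOS call on chow was lost. The difference of FOSB between combined and MSG did not pass with the trans-fat/HFCS arrays in the model either (adjusted p = 0.12 in limma), and its calls were in contrasts that use them. For trans-fat/HFCS against control, for MSG on the trans-fat/HFCS base and for the interaction, no value without them can be given, and the part of the muscle signal in them was not tested. The stellate cell markers, whose 8 members were all lower on combined than on MSG (median -0.53, 1 of 8 passed), moved with the falls of DUSP1 and ZFP36 on the combined diet, and their part in these falls was not tested.

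Genes that respond to heat and handling were read beside the 10. Of 12 measured heat shock and stress genes, HSPA1A being the one not measured, none passed in any of the 7 contrasts in limma, with 1 to 3 at an unadjusted p under 0.05 in each. They averaged a log2 intensity of 5.66 to 5.84 over the 8 arrays, and neighbouring diets overlapped. Their summed intensity was 8384 and 8581 on the trans-fat/HFCS arrays and between 5858 and 7418 on the others. Most of that sum came from the metallothioneins MT2A, at 12.45 and 12.49 on trans-fat/HFCS and 11.90 and 12.09 on control, and MT1X, at 11.27 and 11.30 against 10.75 and 10.65. The chaperone HSPA5 read 6.97 and 6.78 on trans-fat/HFCS and 7.27 and 7.35 on control. For MSG on chow 7 of the 12 were positive and 5 negative, with 2 at an unadjusted p under 0.05 in limma. Among the negative ones, HSPH1 read 6.06 and 5.69 on control and 5.10 and 5.13 on MSG. HSP90AA1 read 4.11 and 4.28 on control and 3.79 and 3.37 on MSG. The time from death to freezing is not given in the labels, and its part in the levels of the 10 genes was not tested.

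Beyond the 10 genes, other immediate early genes were counted on a list with 31 measured members. For MSG on chow, where 0.246% of all genes fell and 0.0503% rose, 4 of the 31 fell and none rose: NFKBIZ (log2 -1.49, SE 0.19, adjusted p = 0.015 in limma) and NFKBIA (-1.07, SE 0.15, adjusted p = 0.028), which modulate NF-kappaB, the kinase PLK2 (-1.26, SE 0.18, adjusted p = 0.027) and the stress protein GADD45B (-1.08, SE 0.16, adjusted p = 0.039). NFKBIZ went from 5.47 and 5.43 on control to 3.78 and 4.14 on MSG, and stood at 4.52 and 4.42 on trans-fat/HFCS and 3.83 and 4.12 on combined. The median of the list was -0.08, with 19 members negative and 12 positive. The transcription factor MYC read 4.22 and 4.23 on control and 5.24 and 5.50 on MSG, a difference of 1.15 (SE 0.19) that did not pass (adjusted p = 0.053 in limma). For MSG on the trans-fat/HFCS base none of the 31 passed in limma, 9 had an unadjusted p under 0.05, and the median was -0.17.

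With trans fat and HFCS, averaged over MSG, 4 of the 31 fell and 3 rose, where 3.22% of all genes fell and 4.44% rose. CTGF, a secreted matrix protein (-0.59), the antiproliferative BTG1 (-0.55), the clock-linked repressor BHLHE40 (-0.75) and GADD45B (-0.47) fell, while TRIB1, a kinase-like scaffold (0.56), PLK2 (0.57) and the EGF receptor inhibitor ERRFI1 (0.51) rose, with an adjusted p between 0.018 and 0.044 in limma. Between MSG and combined, CTGF (-1.04, SE 0.16, adjusted p = 0.017 in limma), BTG1 (-0.89, SE 0.16, adjusted p = 0.031) and the kinase SGK1 (-0.85, SE 0.16, adjusted p = 0.039) fell and none rose, where 0.715% of all genes fell. Between control and trans-fat/HFCS, NFKBIZ (-0.98, SE 0.19, adjusted p = 0.034 in limma) and TNFAIP3, an inhibitor of NF-kappaB (-0.85, SE 0.17, adjusted p = 0.039), fell, where 1.02% of all genes fell. The list had medians of -0.17, -0.12 and 0.02 in these contrasts.

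**Figure D4:**
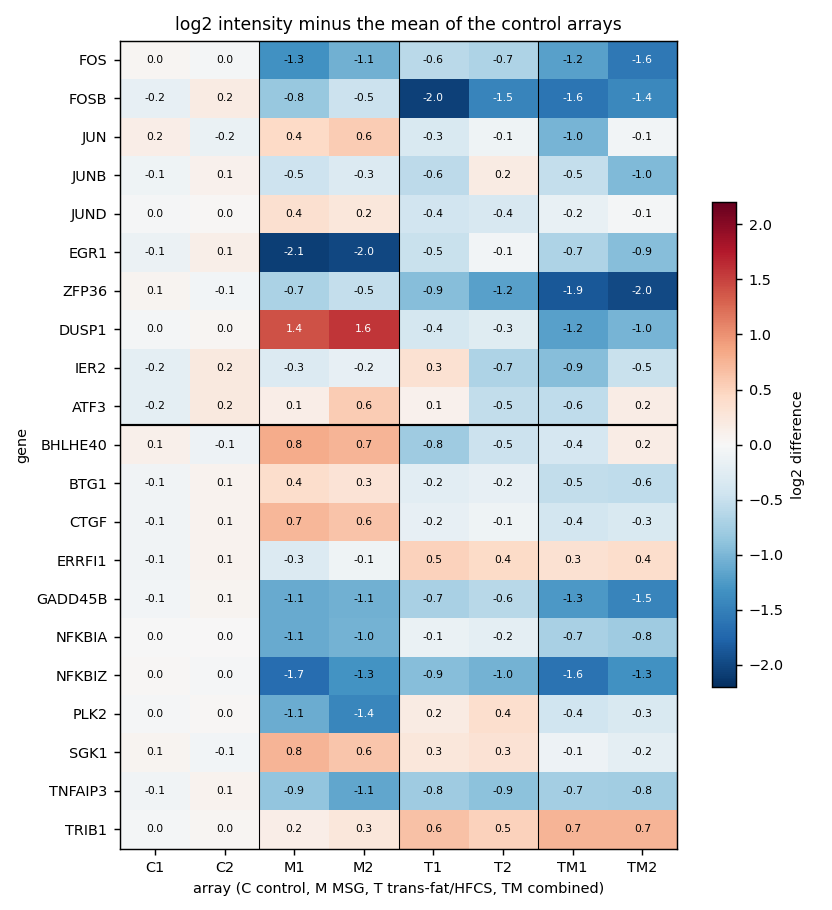
Log2 intensity minus the mean of the control arrays for the 10 genes (above the line) and for the 11 other immediate early genes that passed in at least 1 contrast (below it), with 1 column per array. FOS, EGR1, GADD45B, NFKBIA, NFKBIZ and PLK2 are blue on both MSG arrays, whereas DUSP1 is red on the MSG arrays and blue on the combined arrays.

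Other genes of the pathway were counted in the same way. Of 12 other AP-1 bZIP genes, only BATF passed, higher with trans fat and HFCS on average (0.69, SE 0.14, adjusted p = 0.023 in limma) and between MSG and combined (1.09, SE 0.20, adjusted p = 0.035). In these contrasts 4.44% and 0.944% of all genes rose. BATF, an AP-1 factor best known in lymphocytes, read 2.34 and 2.61 on MSG and 3.48 and 3.65 on combined. None of 5 other EGR genes and NAB co-repressors of EGR proteins passed in any contrast in limma, with 0 to 3 at an unadjusted p under 0.05; EGR3 had 0.73 with trans fat and HFCS (SE 0.20, adjusted p = 0.059) and EGR4 -0.51 (SE 0.15, adjusted p = 0.069). Without MSG the EGR4 difference was -0.87 (SE 0.21, adjusted p = 0.068 in limma). None of 9 relatives of ZFP36 and DUSP1 passed in limma either, with 0 to 3 at an unadjusted p under 0.05. DUSP5, a nuclear ERK phosphatase, differed by -0.83 (SE 0.25, adjusted p = 0.14 in limma) between MSG and combined, and DUSP6, a cytoplasmic one, by 0.64 (SE 0.22, adjusted p = 0.18).

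Among 21 measured kinases and serum response factors upstream, none passed for MSG in limma on either base, with 1 and 2 at an unadjusted p under 0.05. With trans fat and HFCS the p38 kinase MAPK14 (-0.62, SE 0.13) and MAP3K1 (-0.69, SE 0.14), which acts on the JNK branch, fell (adjusted p = 0.023 for both in limma). These were 2 of the 21, where 3.22% of all genes fell. MAP2K4, another kinase of that branch, fell between control and trans-fat/HFCS (-0.87, SE 0.16, adjusted p = 0.029 in limma). It was 1 of the 21, where 1.02% of all genes fell, in a contrast that uses the arrays with the muscle signal. Glucocorticoids are known to induce DUSP1, and 11 genes of that response were measured. FKBP5, a receptor co-chaperone, rose with trans fat and HFCS (1.63, SE 0.14, adjusted p = 6e-04 in limma), as did ZBTB16 (1.16, SE 0.12, adjusted p = 0.0015) and ERRFI1 (0.51, SE 0.12, adjusted p = 0.032). In that average 4.44% of all genes rose. Of the 11 differences 7 were positive and 4 negative, those of SGK1, TSC22D3, CEBPD and DDIT4, and none of the negative ones passed. Between MSG and combined FKBP5 rose (1.86, SE 0.20, adjusted p = 0.0044 in limma), as did ZBTB16, from 4.25 and 4.04 to 5.33 and 5.36 (adjusted p = 0.012), and SGK1, also on this list, fell (-0.85, adjusted p = 0.039). There 0.944% of all genes rose and 0.715% fell, and the 11 genes split into 6 positive and 5 negative differences (median 0.04). For MSG on chow, where DUSP1 rose, 7 of the 11 were positive and 4 negative, and none passed in limma. SGK1 went from 6.20 and 6.06 on control to 6.88 and 6.74 on MSG, and FKBP5 from 3.70 and 3.66 to 3.13 and 2.78. DUSP1 was lower in the trans-fat/HFCS main effect, by 2.76-fold (log2 -1.47, SE 0.12, adjusted p = 0.00038 in limma), which passed in all 18 alternatives. Of the 18, 1 was combined against MSG alone. The main effect averages -2.60 with MSG and -0.33 without MSG, and the latter did not pass (adjusted p = 0.34 in limma). The part of glucocorticoids in the levels of DUSP1 was not tested.

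The genes most alike in pattern were taken by Pearson's r over the 8 arrays among 2229 genes with at least 3 kept probe sets and a range of at least 1, as a description of these arrays. For DUSP1 they were CTGF (r = 0.99), the GABA receptor subunit GABRG3 (0.98) and the adducin ADD3 (0.96). CTGF stood at 4.05 and 4.20 on control, 4.85 and 4.76 on MSG, 3.94 and 4.04 on trans-fat/HFCS and 3.72 and 3.79 on combined, the same order of diets as DUSP1 over a narrower range. For FOS they were GADD45B (0.98), DERL2, a factor of protein export from the endoplasmic reticulum (0.96), and the glucose transporter SLC2A1 (0.95). GADD45B, itself an immediate early gene, read 5.28 and 5.41 on control, 4.24 and 4.29 on MSG, 4.63 and 4.74 on trans-fat/HFCS and 4.09 and 3.89 on combined. For EGR1 they were ATP6V1C2 (0.98), a proton pump subunit, the anion exchanger SLC4A3 (0.97) and SIVA1 (0.97). For FOSB they were the calcium-sensing receptor CASR (0.97), C9orf117 (0.97) and GUCA2A (0.96), and for ZFP36 C18orf21 (0.97), ANKRD28 (0.96) and the chloride channel ANO1 (0.96).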

How the data were processed

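Total RNA of snap-frozen liver was hybridised to a human Affymetrix gene array, 8 arrays in all. The authors deposited 1 normalized intensity per probe set. Normalization tools are listed as GCRMA and Partek, and the build as hg19 (human), per the submitters' processing notes, which give no versions or order. The deposited intensities are linear and were converted to log2 here. Probe sets with a mean over the arrays above the median of all (log2 2.43, intensity 5.38) were kept, and those annotated to 1 gene were averaged per gene, giving 17910 genes. Gene symbols are those of the platform annotation and can be old. All 10 members have an entry in a RefSeq table of cat genes, used for names only, and no sequence or coordinate was used.

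Contrasts were fitted by lmFit and eBayes of limma 3.58.1 under R 4.3.3 (4 residual degrees of freedom, prior 5.01), two-sided, with Benjamini-Hochberg adjustment over all 17910 genes. Errors beside log2 differences are moderated standard errors. The number of arrays limits the precision. The fit was tested on simulated data with known changes. For MSG on chow, 61% of simulated 2-fold changes and 99% of 4-fold changes passed, with 7 false calls. A gene that did not pass can therefore still have changed.

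The 10 members and all lists were chosen with earlier results of these data known. Named are all members, up to 4 genes of each pathway list with the smallest p per contrast, and the 3 genes most alike in pattern to each member that passed. Marker lists of Kupffer cells, neutrophils, lymphocytes, erythroid cells, endothelium and cholangiocytes were also read. MYC, further list genes that passed, the glucocorticoid genes named for a negative difference and the probe sets singled out were chosen after their values were seen.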

Additional observations from a re-analysis of the deposited data

Results flagged for a closer look

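DUSP1 drew attention because MSG went with opposite differences on the 2 base diets. On chow it rose from a mean log2 intensity of 4.95 to 6.44, and both MSG arrays lay above both control arrays. On the trans-fat/HFCS base it stood at 4.62 without MSG and 3.84 with it, and both combined arrays lay below both trans-fat/HFCS arrays. Such separation is common with 2 arrays per diet: 39.6% of all genes showed it on chow and 37.1% on the trans-fat/HFCS base. The fall of DUSP1 on that base, -0.78, was outside the threshold (limma, adjusted p = 0.18). It uses the trans-fat/HFCS arrays, where the muscle signal was high, and the part of that signal in it was not tested. The test of the difference between the MSG effects gave -2.27 on the log2 scale (SE 0.24, adjusted p = 0.013 in limma), the sixth smallest p of all genes, with an adjusted p between 0.00065 and 0.19 over 16 alternatives.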

How the results depend on the processing

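Alternatives were other filters, summaries of probe sets, scales, models and sets of arrays. Of 1200 values of the 10 genes recomputed, 1109 stayed on their side of the threshold, 65 lost a call and 26 gained one, and none turned sign while called (30 of 932 uncalled in both fits did). Most of the 1109 were uncalled in both fits. The 65 lost calls are therefore to be set against the 268 values called in a fit, not against the 1200. With the brightest probe set the numbers of the 10 genes passing were 1 for the MSG main effect, 5 for the trans-fat/HFCS main effect, 0 for the interaction and 1 for MSG on chow. With the median of probe sets they were 0 for the MSG main effect, 0 for the interaction, 1 for MSG on chow and 1 for trans fat and HFCS without MSG. Without the brightness filter they were 5 for the trans-fat/HFCS main effect, 1 for MSG on the trans-fat/HFCS base and 1 for trans fat and HFCS without MSG. With 16 added to each intensity they were 4 and 6 for the MSG and trans-fat/HFCS main effects and 1 for MSG on the trans-fat/HFCS base. In a model without interaction none passed for MSG. Leaving out 1 array gave 0 to 2 for the MSG main effect, 3 to 4 for the trans-fat/HFCS main effect, 0 to 1 for the interaction, 0 to 3 for MSG on chow, 0 for MSG on the trans-fat/HFCS base, and 0 to 2 and 1 to 3 for trans fat and HFCS without and with MSG. A diet left with 1 array was assumed to vary like the others. Why the counts moved was not tested.

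The number of all genes passing also moved, from 59 to between 1 and 149 for the MSG main effect, from 1372 to between 233 and 2434 for the trans-fat/HFCS main effect, from 27 to between 5 and 82 for the interaction, from 53 to between 13 and 137 for MSG on chow, from 32 to between 7 and 73 for MSG on the trans-fat/HFCS base, and from 444 to between 62 and 1120 and from 297 to between 54 and 986 for trans fat and HFCS without and with MSG.

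Replicate numbers did not pair the arrays: deviations of same-numbered arrays correlated between -0.056 and 0.043 over 17910 genes, and the labels name no shared litter or batch. With the replicate number as a block, 2 of the 10 genes passed for the MSG main effect, 3 for the trans-fat/HFCS main effect, 1 for the interaction, 2 for MSG on chow, 0 for MSG on the trans-fat/HFCS base, and 2 and 3 for trans fat and HFCS without and with MSG. FOS on chow was the gene that did not pass (adjusted p = 0.11 in limma). The block moved the count of all genes to 11 for the interaction, 34 for MSG on chow and 14 for MSG on the trans-fat/HFCS base.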
